A study of Mus musculus with 2 samples.

Results

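Cytosolic ribosomal protein genes were chosen by name: protein-coding genes whose mouse GENCODE symbol begins with Rpl or Rps and a digit, together with Rplp0, Rplp1, Rplp2 and Rpsa, and without the Rps6k kinases. The rule gave 92 of the 43346 mouse genes in the tables, of which 21461 were nuclear protein-coding genes. RNA was measured in hearts of mouse embryos of strain B6NCrl at embryonic day 10.5, when the tube has looped and its chambers are forming. There was 1 group with 2 libraries: replicate 1 came from a pool of 69 embryos and replicate 2 from a separate pool of 51, males and females mixed in both. Each library was made from 10 ng of total RNA longer than 200 nt, with synthetic ERCC RNAs added. The hearts were pooled and not sorted into cell types as far as the labels say, so that muscle, endothelium and blood were measured together. The labels name no treatment and no second condition.

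A ribosome is built from ribosomal RNAs and a set of ribosomal proteins, each of which is present once per particle except for the acidic stalk proteins. The large subunit joins amino acids and holds the exit tunnel, and the small subunit decodes the messenger RNA. Most of these genes carry a 5′ terminal oligopyrimidine tract, a run of C and T at the first transcribed base, through which growth signals by way of mTOR and Larp1 set their translation. In the developing heart, as in other growing tissues, ribosome supply accompanies cell growth, and loss of single ribosomal proteins can stabilise p53.

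By their symbols the 92 genes fell into 3 classes. There were 77 canonical genes, 46 for the large subunit and 31 for the small. A further 8 were paralogs or retrocopies (Rpl3l, Rpl7l1, Rpl10l, Rpl22l1, Rpl36al, Rpl39l, Rps27l and Rps27rt), the last being an intronless copy annotated as protein-coding. The other 7 entered through the name alone: 6 carry a -ps suffix, used for pseudogenes, and Rps19bp1 encodes a binding partner of Rps19 and no ribosomal protein. In turn genes such as Fau and Rack1 encode ribosomal proteins that the name rule does not take.

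How far sequence separates these genes sets how far reads can be told apart, so the first 90 coding bases of the Rps27 and Rpl10 families are shown, from the GENCODE M21 transcripts. Capitals mark letters that differ from the first gene of each family. Rps27 lies on the minus strand at chr3:90212522-90213651 (GRCm38), Rps27rt on the minus strand at chr9:114982366-114982739 and Rps27l on the plus strand at chr9:66946086-66949516.
Rps27: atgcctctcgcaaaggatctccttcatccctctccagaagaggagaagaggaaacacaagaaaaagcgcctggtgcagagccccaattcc
Rps27rt: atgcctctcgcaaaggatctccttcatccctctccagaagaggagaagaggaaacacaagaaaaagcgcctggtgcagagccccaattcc
Rps27l: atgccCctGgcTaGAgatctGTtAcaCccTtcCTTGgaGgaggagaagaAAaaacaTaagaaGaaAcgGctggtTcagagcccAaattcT
Rpl10: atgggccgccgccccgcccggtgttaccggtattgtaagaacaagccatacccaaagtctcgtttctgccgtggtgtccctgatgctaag
Rpl10-ps3: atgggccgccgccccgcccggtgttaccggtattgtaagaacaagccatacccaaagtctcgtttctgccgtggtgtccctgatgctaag
Rpl10l: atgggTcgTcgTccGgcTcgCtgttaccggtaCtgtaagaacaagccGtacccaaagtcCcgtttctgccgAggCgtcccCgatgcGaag
Rps27 and Rps27rt had 0 mismatches over all 252 coding nt, and Rps27 and Rps27l had 60. Rpl10, on the plus strand at chrX:74270812-74273135, and Rpl10-ps3, on the minus strand at chr9:50344201-50344968, had 0 mismatches over 642 nt. Rpl10l, on the minus strand at chr12:66283379-66284401, differed from Rpl10 at 98. Reads that lie inside an identical stretch cannot be assigned from their letters, and the deposited estimates divide them by a method not given in the sources used here.

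Ribosomal protein mRNAs were among the abundant messages of the heart. TPM is the length-scaled level in the deposited tables. Of the 92 genes 86 reached 1 TPM or more in both libraries, against 56.9% of all nuclear protein-coding genes. Their summed TPM was 6.34% in replicate 1, and 5.59% in replicate 2, of all nuclear protein-coding TPM (5.97 ± 0.53%, SD, n = 2 libraries). The same genes took 2.31% and 2.03% of the expected counts, the estimated reads per gene before scaling by length. The principal transcripts of the 77 canonical genes among them, described next, were short, with a median of 761 nt against 2923 nt for 12118 other detected genes. In bulk tissue a lower level can come from fewer cells of a type or from less RNA per cell, and these cannot be told apart here.

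The 77 canonical genes had median levels of 619 TPM (replicate 1) and 562 TPM (replicate 2), against 19.8 and 19.1 TPM for nuclear protein-coding genes at 1 TPM or more. The middle 50% of them lay between 376 and 830 TPM in replicate 1, and from 335 to 749 TPM in replicate 2. The large subunit genes had medians of 593 and 544 TPM and the small subunit genes 649 and 578 TPM, so the subunits' medians lay close together within each library. Of the 77, 61 in replicate 1 and 62 in replicate 2 lay within 2-fold of the median, 12 lay below that range in each library, and 4 and 3 above it. The range was wide at its ends, the highest gene being 30.5 times the lowest in replicate 1 and 36.9 times in replicate 2.

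**Figure D1:**
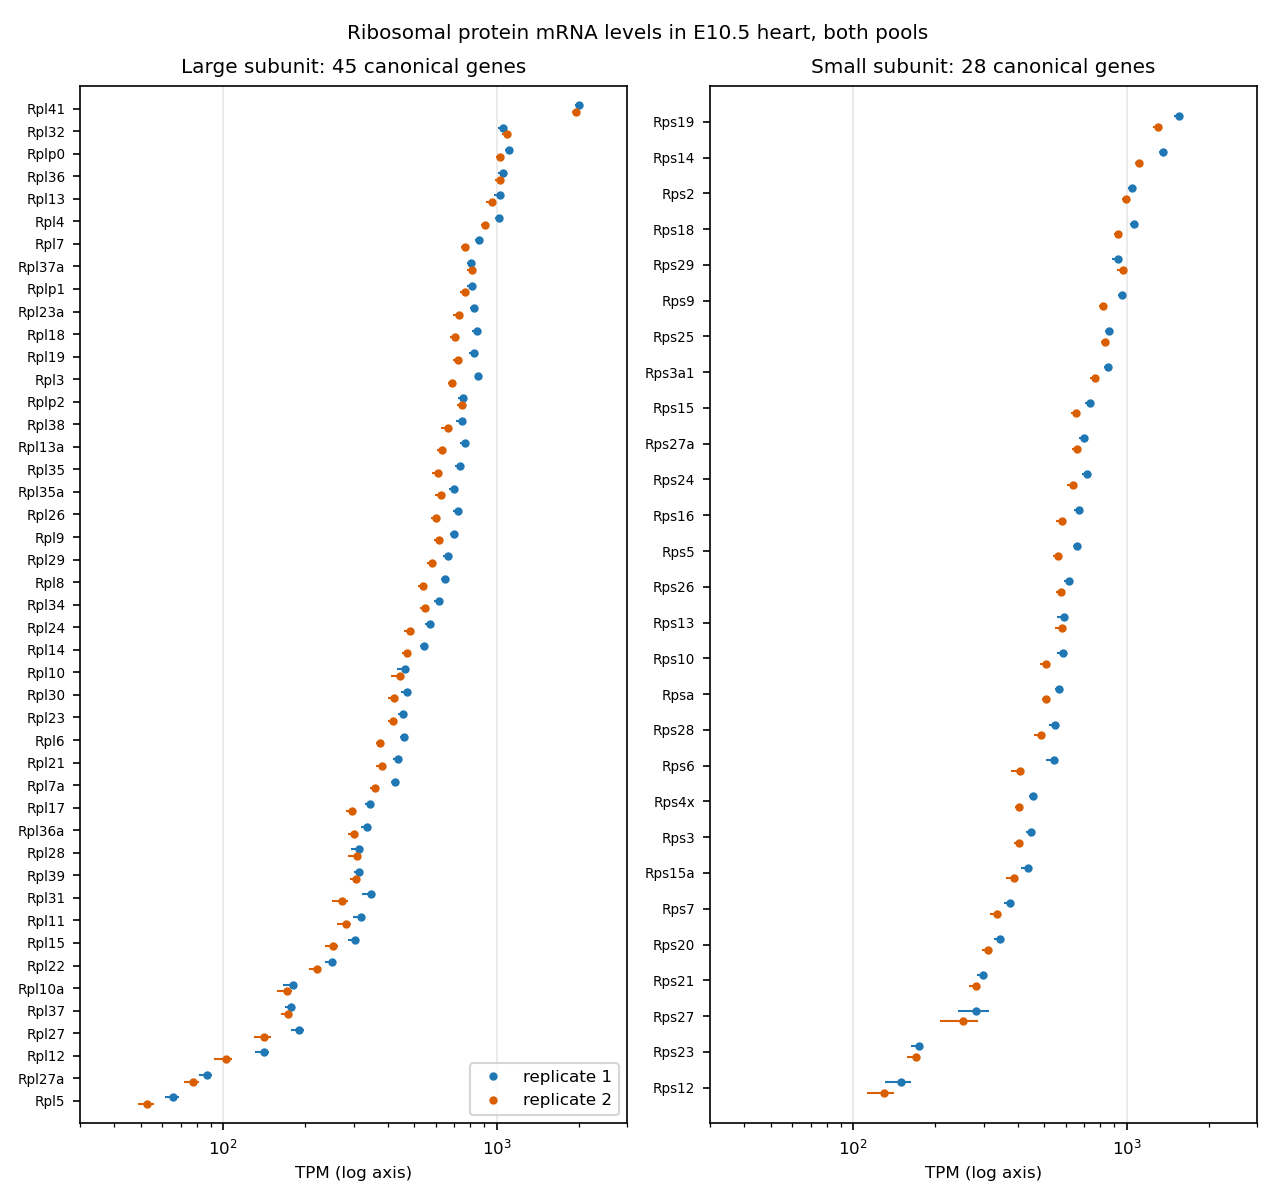
TPM on a log axis of 45 large subunit (left) and 28 small subunit (right) canonical genes, replicate 1 in blue and replicate 2 in orange; points are deposited TPM and horizontal lines the deposited intervals, which belong to a separate posterior estimate. The middle 50% of genes sit between 376 and 830 TPM in replicate 1, Rpl41 stands at the top, and Rpl5, Rpl27a and Rpl12 end the large subunit column.

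Rpl41, the smallest ribosomal protein (GRCm38 chr10:128548114-128549305), led with 2005 TPM in the first pool (replicate 1) and 1951 TPM in the second. It ranked 24 and 32 among all nuclear protein-coding genes. Rps19, a small subunit protein whose human counterpart is the gene most often mutated in Diamond-Blackfan anaemia (chr7:24884371-24889806), followed with 1551 and 1304 TPM. The 8 highest by mean level also included Rps14, Rpl32, Rplp0, Rpl36 and Rps2, between 992 and 1358 TPM. The order of the canonical genes was nearly the same in both pools: the top 10 lists shared 9 genes and the lowest 10 lists shared 9. Across the 77 genes log2 TPM correlated between libraries with Pearson's r = 0.994 (Spearman's rho = 0.99), as a description over genes that share both libraries. For 2727 other genes at 50 TPM or more r was 0.966.

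The stalk of the large subunit recruits elongation factors. Rplp0, its base, reached 1113 and 1030.2 TPM in replicates 1 and 2. The acidic proteins Rplp1 and Rplp2, which bind it as dimers, were at 812 and 768 TPM and at 751 and 749 TPM. Rplp1 and Rplp2 did not meet the rule for an ordered pair, since their intervals overlapped in replicate 2. Rpl12, which sits where the stalk joins the subunit (chr2:32961559-32965345), was listed at 141 and 102 TPM. With its pseudogene copies added Rpl12 stood at 474 and 389 TPM, still below the other 3.

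Rpl5 and Rpl11 join 5S ribosomal RNA in the 5S particle, which binds Mdm2 when ribosome assembly fails. Rpl11 reached 320 and 281 TPM in replicates 1 and 2, and Rpl5 (chr5:107900502-107909005) at 65.8 and 52.9 TPM. Rpl11 was thus 4.86 and 5.32 times Rpl5, with intervals apart in both libraries, a pair chosen after the values were seen. Rpl5 had the lowest level of the 77. The order turned once pseudogene copies with near-identical coding sequence, described further on, were added: Rpl5 then stood at 818 and 654 TPM and Rpl11 at 524 and 485 TPM.

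Of the proteins at the exit tunnel and its opening, 9 canonical genes were listed. Rpl4, which lines the tunnel, was the most abundant with 1020.4 and 904 TPM, followed by Rpl23a with 830 and 727 TPM and Rpl19 with 827 and 722 TPM. Rpl22 was the lowest of the 9 with 249.9 and 220.1 TPM. Among 15 listed small subunit proteins of the head and the decoding centre, levels ran from 149 TPM (Rps12) upward in replicate 1 and from 130.0 TPM in replicate 2, with medians of 662 and 562 TPM. For Rps12, copies held 62.3% and 64.1% of the joint TPM, which was 396 and 362 TPM. Rps19, Rps2 (1048 and 992 TPM) and Rps18 (1068 and 934 TPM) were the highest of these 15.

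For 7 genes mutations in mice are known to disturb development. Rpl38, whose loss of a copy alters the axial skeleton, stood at 745 and 663 TPM, and Rps19 is given above. Rpl24, of the Belly spot and tail mouse, stood at 569 and 483 TPM. Rps7 was at 376 and 335 TPM, and Rps20, of a dark skin mutant, at 344 and 312 TPM. Rpl27a, of the sooty foot ataxia mouse (chr7:109519147-109522367), was at 87.3 and 77.5 TPM. Rpl22, needed for T cell development, completed the list, and all 7 were detected in both pools.

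Fau and Rack1, outside the name rule, lay inside the range of the canonical genes. Fau, which encodes a ubiquitin-like protein fused to eS30, was at 443 and 388 TPM. Rps27a, which the name rule does take, also encodes a fusion with ubiquitin, and was at 697 and 661 TPM. Rack1, a scaffold on the small subunit, was at 595 and 461 TPM.

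Many of the lowest canonical genes had abundant copies elsewhere in the genome. A copy was a pseudogene whose sequence matched at least 80% of a gene's coding sequence at 90% identity or more. There were 671 such copies in the tables, belonging to 72 of the 77 canonical genes, and 208 had no count in either library while 116 reached 1 TPM in both. Summed over replicates 1 and 2 in turn, the copies held 11958 and 10931 TPM, which was 19.5% and 19.8% of the canonical genes and copies together. By expected counts the shares were 13.6% and 13.7%.

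For 14 of the canonical genes the copies held more TPM than the gene itself in both libraries. By expected counts the number was 8 in each library. The genes and copies named in this account of copies were chosen after their values were seen. Rpl5 was the extreme: 92% of the joint TPM in replicate 1 and 91.9% in replicate 2 lay on copies. Nearly all of it lay on Gm15500, which matches the Rpl5 coding sequence at 100% identity, at 752 TPM (20589 counts) and 600.3 TPM (14865 counts). By counts the copies of Rpl5 still held 88.7% and 89.4%.

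Copies of Rps23, Rpl27, Rpl27a and Rpl37 held 84.4%, 83.2%, 81.8% and 76.6% of the joint TPM in replicate 1. In replicate 2 the shares were 84.3%, 85.8%, 81.8% and 75.9%. The main copies were Rps23-ps1 (935 and 905 TPM), Gm11518 and Rpl27-ps3 for Rpl27 (530.0 and 409 TPM, 408 and 445 TPM), Gm7536 for Rpl27a (388 and 346 TPM) and Rpl37rt (581 and 544 TPM). Each of these copies matched the coding sequence of its gene at 99.7% identity or above.

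Rpl12 followed the same pattern, with 70.3% and 73.7% of its joint TPM on copies, nearly all on Gm10275 at 332 and 286 TPM. Of the 12 lowest canonical genes 9 had more TPM on copies than on the gene in replicate 1. A low level of the gene itself raises the share on copies, so this count is no test. The scale matters for short copies. Gm14303, a copy of Rps29, was listed at 1045 and 983 TPM from 2288 and 1941 counts, while Rps29 had 928 and 970.0 TPM from 8221 and 7748 counts. The copies of Rps29 therefore held 53% and 50.4% of the joint TPM, but 21.8% and 20.1% of the joint counts.

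**Figure D2:**
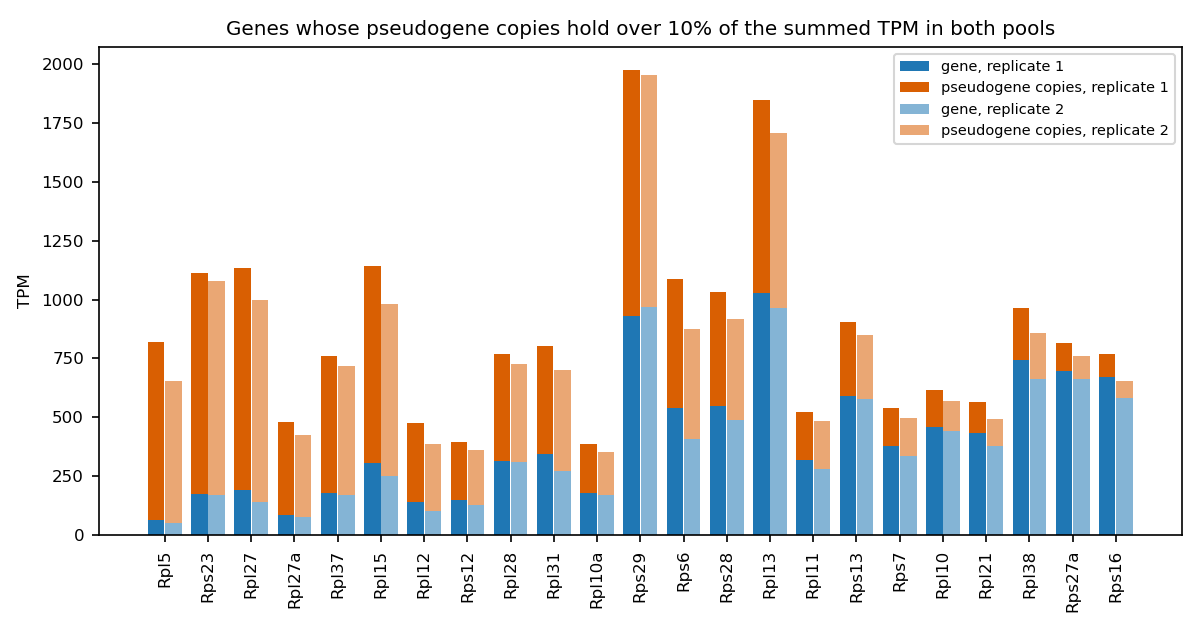
Stacked bars of TPM for 23 of the 25 canonical genes whose pseudogene copies held more than 10% of the joint TPM in both libraries; blue is the gene and orange its copies, dark for replicate 1 and pale for replicate 2. From Rpl5 on the left, where 92% of the replicate 1 bar is orange, to Rps16 on the right, where 12.7% is, the paired bars have nearly the same division in both pools.

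Adding the copies made the canonical genes more alike. The SD of log2 TPM across the 77 genes was 0.93 and 0.95 for the genes alone and 0.64 and 0.66 with copies added. The highest gene was then 7.99 and 8.84 times the lowest, which had become Rpl22 at 251.1 and 221 TPM. The 14 genes with most of their joint TPM on copies had medians of 185 and 172 TPM alone and 810.3 and 721 TPM with copies. They were chosen by these same values. The choice favours a low level alone and fixes a large rise with copies, so the contrast is no test. The 52 genes with at most 10% on copies in both libraries had medians of 719 and 621 TPM alone. Whether reads of the genes were assigned to the copies, or the copies were transcribed, was not tested.

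Paralogs differed in how near they came to the gene they resemble. Of 13 pairs listed, 10 held the same order in both libraries with the deposited intervals of the pair apart in each. Among the rest, Rpl22 with Rpl22l1 and Rplp1 with Rplp2 lay near equal levels. Pairs with Rps27rt or a -ps symbol of Rpl10, Rps12, Rpl36, Rpl36a or Rpl9-ps1 were added after the values were seen.

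Rpl3 forms part of the peptidyl transferase centre, and Rpl3l replaces it in mature skeletal and heart muscle. Rpl3 stood at 859 and 686 TPM, with 31480 and 22683 counts. Rpl3l (chr17:24727820-24736143) had 10 counts (0.32 TPM) in replicate 1, against 28 (1.06 TPM) in the second library. The log2 ratio of Rpl3 to Rpl3l was 10.36 ± 1.45 (SD, n = 2), and rests on these few counts of Rpl3l. Their coding sequences are 74.1% identical over 1206 aligned nt.

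Rpl22 and its paralog Rpl22l1 were equal within the spread of the pools. Rpl22 had 249.9 and 220.1 TPM and Rpl22l1 232 and 226 TPM, a log2 ratio of 0.03 ± 0.10 (SD, n = 2). The order changed between the libraries and the intervals overlapped in both. On expected counts, not corrected for length, Rpl22 was above Rpl22l1 in both. Rpl7l1 was well below Rpl7, at 139 and 95.7 TPM against 865 and 770.2 TPM, a log2 ratio of 2.83 ± 0.26 (SD, n = 2).

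In 3 of the listed pairs the gene without the plain symbol was the higher. Rpl37rt, an intronless copy of Rpl37, stood at 581 and 544 TPM against 177.3 and 172.5 TPM, or 3.28 and 3.15 times, but had fewer counts, 3493 and 2960 against 4141 and 3634. Rpl36al, an autosomal copy of X-linked Rpl36a, stood at 522 and 495 TPM against 336 and 302 TPM, that is 1.55 and 1.64 times as high. Rps27l, a p53 target in human cells, stood at 587 and 529.9 TPM against 282 and 253 TPM for Rps27, or 2.08 and 2.09 times. The intronless Rps27rt, whose coding letters cannot be told from those of Rps27 (shown above), was at 652 and 621 TPM, or 2.31 and 2.45 times Rps27. Rps27 and Rps27rt summed to 934 and 874 TPM, above Rps27l, so the order of Rps27 and Rps27l depends on how reads of the identical pair were divided. Rps27 had an interval width of 26.5% and 31.4% of its posterior level, against medians of 4.72% and 5.14% for the 83 members with a mean count of 1000 or more.

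Rpl10l and Rpl39l, known from testis, were near or at 0. Rpl10l had 0 counts in both libraries, where a count of 0 allows up to 3 counts, against 9806 and 8502 for Rpl10. Rpl39l had 3 and 5 counts (0.22 and 0.28 TPM) against 4902 and 4296 for Rpl39, which are 85% identical in coding sequence. The letters that separate the coding starts of Rpl39 and Rpl39l are few, and are in capitals here for the first 90 coding bases.
Rpl39: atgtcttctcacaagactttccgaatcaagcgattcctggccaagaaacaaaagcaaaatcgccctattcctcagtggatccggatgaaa
Rpl39l: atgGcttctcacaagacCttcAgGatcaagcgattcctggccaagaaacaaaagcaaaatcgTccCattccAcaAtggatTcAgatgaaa

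The -ps genes annotated as protein-coding spanned a wide range. Rpl10-ps3 was at 104 and 116 TPM, with intervals as wide as 54% and 52.9% of its level. Rps12-ps3 was at 29.2 and 21.4 TPM and Rpl9-ps6 at 20.9 and 18.9 TPM, the latter 1 letter apart from Rpl9 over 576 coding nt. Rpl36a-ps1 had 5 and 12 counts, and Rpl9-ps1 and Rpl36-ps4 had 0 in both. Rps4l and Rpl34-ps1, listed as pair partners though annotated as pseudogenes, stood at 236 and 256 TPM against 456 and 406 TPM for Rps4x, and at 4.84 and 5.3 TPM against 618 and 549 TPM for Rpl34.

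**Figure D3:**
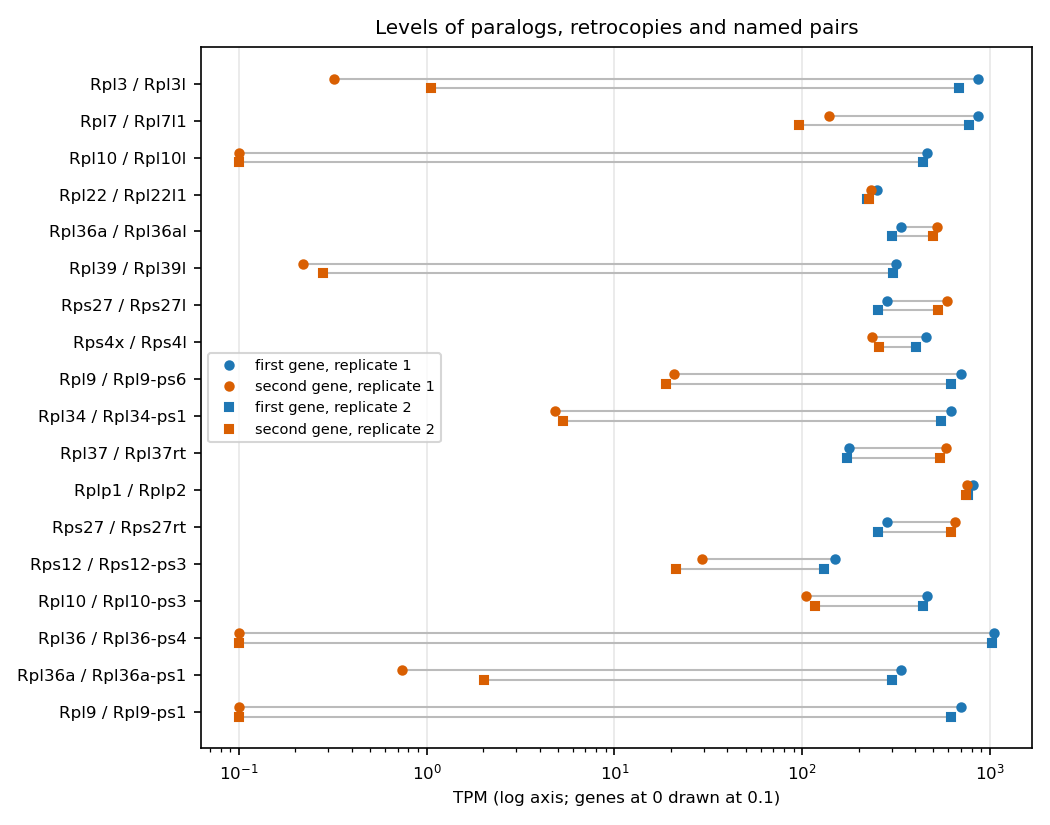
TPM on a log axis for 18 named pairs, the first gene in blue and the second in orange, circles for replicate 1 and squares for replicate 2, with a grey line joining the genes of a pair; genes listed at 0 are drawn at 0.1. Rpl22 and Rpl22l1 lie together, between 220.1 and 249.9 TPM, Rpl36al, Rps27l and Rps27rt lie to the right of the first gene, and Rpl3l, Rpl10l and Rpl39l lie far to the left.

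Between the 2 pools the ratios of the ribosomal protein genes lay close together. Ratios are log2 of replicate 2 over replicate 1, from expected counts scaled by TMM. Of 86 members with a mean count of 50 or more, 0 differed 2-fold with intervals apart, against 4.92% of 12978 nuclear protein-coding genes higher in replicate 1 and 2.22% higher in replicate 2 (7.14% in either direction). At 1.25-fold with intervals apart 3 members were higher in replicate 1 (15.3% of all) and 0 in replicate 2 (15.6%). Among genes with a mean count of 1000 or more and no higher than the members, the SD of the log2 ratio was 0.12 for 83 members and 0.40 for 7337 others. In those sets 96.4% of members and 71.4% of others lay within 1.25-fold. The biological coefficient of variation fitted by edgeR was 0.0662 for 87 members and 0.298 for all 17557 genes fitted. A trend over expression, fitted to all genes in place of 1 common value, gave medians of 0.182 at the members' expression and 0.259 over all genes. The value of 0.182 thus describes genes of like expression and not the members' own spread. These 2 libraries allow no p-value, and the spread between them includes any difference between the pools.

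**Figure D4:**
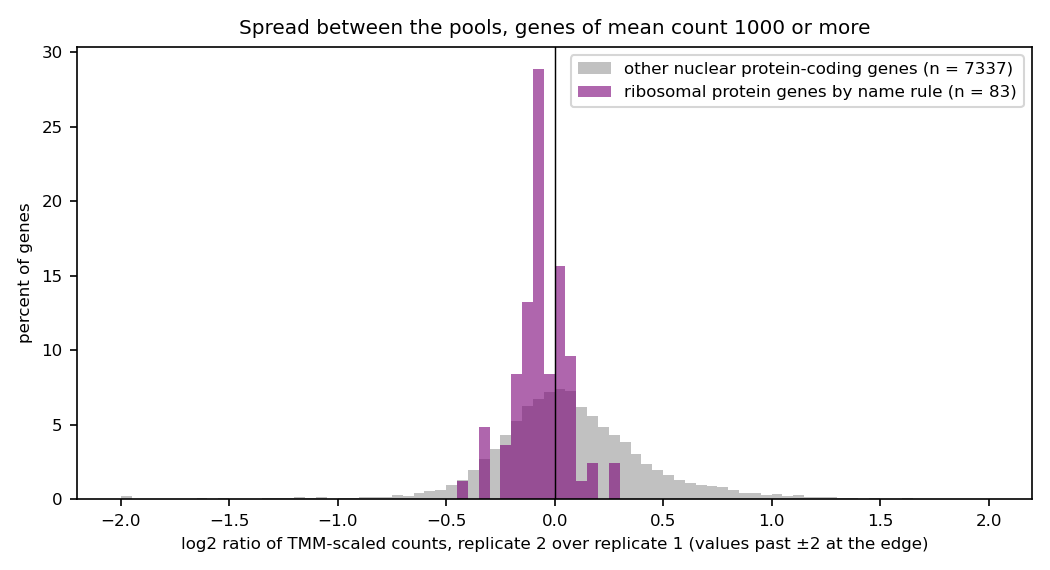
Histograms of the log2 ratio of TMM-scaled counts, replicate 2 over replicate 1, as percent of genes, for 83 ribosomal protein genes (purple) and 7337 other nuclear protein-coding genes (grey). Both sets had a mean count of 1000 or more, the others no higher than the highest member, and counts were not matched within that range. The purple bars run from -0.43 to 0.26 with the median at -0.07, and the grey ones are wider, with an SD of 0.40 against 0.12.

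The small differences leaned to replicate 1. The median over 87 members with a mean count of 10 or more was -0.07, with quartiles of -0.13 and 0.02. Of these, 60 were higher in replicate 1 and 27 in replicate 2, against 50% in each direction for all 14802 genes. Intervals were apart, at any fold, for 56 members higher in replicate 1 (33.6% of all genes) and for 9 higher in replicate 2 (20.8%). The lean was alike in both subunits: 32 of 46 large subunit genes and 23 of 31 small subunit genes were higher in replicate 1, with medians of -0.08 and -0.07. With ERCC scaling the sign turned, and the members' median was 0.26 with 4 of 87 higher in replicate 1. The median of all genes moved alike, from 0.00 to 0.32, so members stayed 0.07 below it.

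The largest ratios toward replicate 1 were those of Rpl7l1 (-0.43), Rps12-ps3 (-0.35), Rpl27 (-0.34), Rpl5 (-0.33) and Rpl12 (-0.32). Rpl5 had 2629 counts in replicate 1 and 1762 in replicate 2, and Rpl27 had 3393 and 2253. Toward replicate 2 the largest included Rpl10-ps3 (0.26), Rps29 (0.16), Rpl32 (0.15) and Rpl37a (0.11). Rpl10-ps3 had 2038 counts in replicate 1 and 2054 in replicate 2. Rpl3l had a ratio of 1.68, but with a mean count of 19 it was below the minimum for the count of differing genes. With the counts of copies added to each canonical gene, the median ratio was -0.07 and its SD was 0.09, against 0.11 for the genes alone.

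Genes that make or use ribosomes differed in how they lay between the pools. Replicate 1 was the higher for 31 of 33 listed ribosome biogenesis genes, against 50% of all genes, and their median log2 ratio was -0.25. Npm1, a nucleolar chaperone, had 29441 and 18640 counts (-0.41), Ncl, nucleolin, 34624 and 22101 (-0.40), and Nop56, of the box C/D particle, 13289 and 8738 (-0.35). Of 15 translation factors and other mRNAs known for oligopyrimidine tracts 11 leaned to replicate 1, the median being -0.12. The elongation factor Eef1a1 had 2687 and 2471 TPM and a ratio of 0.02. Tpt1 (-0.01) and Hnrnpa1 (-0.30) were the next most abundant of that list.

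Listed mTOR pathway genes and oligopyrimidine-binding proteins were divided, 8 of 16 being higher in replicate 1 and the median being 0.01. Their most abundant genes were Eif4ebp1, an mTOR target that restrains cap binding (0.27), Ssb, the La protein (-0.24), and Rheb, the activator of mTOR (0.21). The p53 list had a median of 0.09, and 2 of its 8 genes with enough counts were higher in replicate 1. Trp53 stood at -0.49 with 6879 and 4115 counts, Ccng1 at 0.86 and Phlda3, the third by level, at 0.08. Cdkn2a, the ninth gene of that list, had 0 counts in both libraries. The 20 genes linked to Diamond-Blackfan anaemia had a median of -0.09, with 18 higher in replicate 1. All 20 are members, with Rps19 and Rps29 among the highest in level. No gene of these lists differed 2-fold with intervals apart.

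By their medians, the lists of cell type and tissue markers differed far more between the pools than the ribosomal protein genes did. All 12 liver primordium markers leaned to replicate 1 (median -4.65), and their TPM summed to 1682 there against 84.1 in replicate 2, led by Afp, Trf and Apoa2. The 13 heart muscle markers, all detected in both pools, were higher in replicate 2, with a median of 0.88 and ratios from 0.35 to 1.60. Actc1, Myl7 and Myl2 led them. Red cell markers, led by Hbb-y, Hba-a2 and Hbb-bh1, had a median of 0.44 with 9 of 10 higher in replicate 2. Endothelial markers, led by Ramp2, Egfl7 and Tek, had a median of 0.56 with 7 of 8. Macrophage markers had a median of -1.45, 8 of 9 being below 0, although the summed TPM of 56.9 and 64.9 was led by Lyz2, the exception, ahead of C1qb and Tyrobp. Neural markers, of which Tubb3, Elavl4 and Stmn2 were the highest, were low, summing to 22.7 and 14.6 TPM, with Olig2 at 0 in both libraries. The part of these cell types in the lean of the ribosomal protein genes was not tested.

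**Figure D5:**
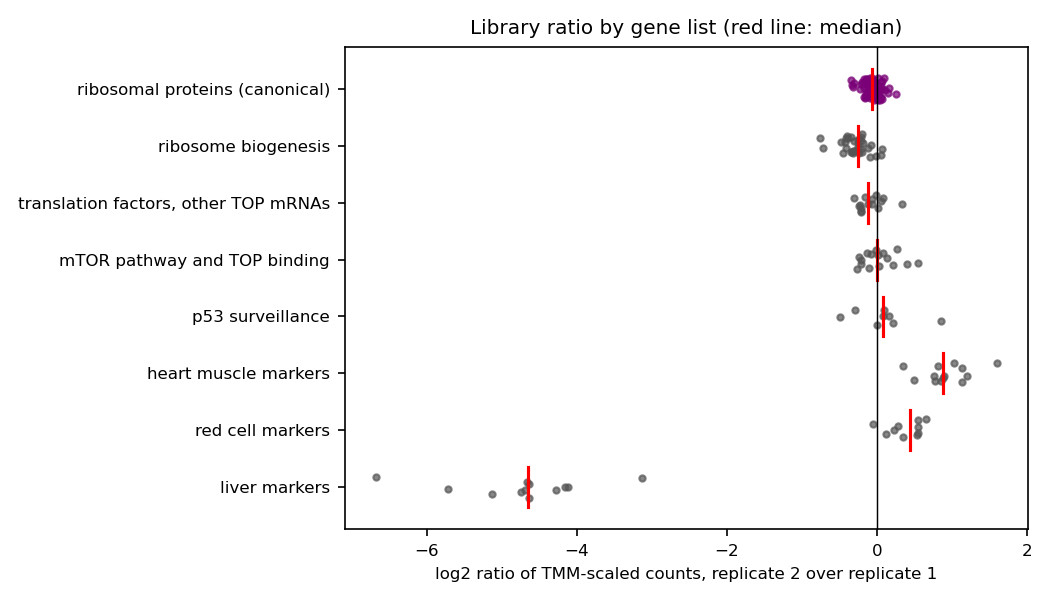
Log2 ratio of TMM-scaled counts, replicate 2 over replicate 1, for the genes of 8 lists; each point is a gene and the red line the median of the list. Ribosomal proteins crowd just left of 0 with a median of -0.07, biogenesis genes lie further left at -0.25, heart muscle markers lie to the right at 0.88 and liver markers far left at -4.65.

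The leading transcripts were nearly all shared between the pools. Of 87 members with transcripts compared, 85 had the same leading transcript in both libraries by TPM and all 87 by expected counts, and 26 have a single annotated transcript. The leading transcript held a median of 95.7% of the gene's TPM in each library, and its share moved by a median of 0.87 percentage points among the 61 genes with 2 or more transcripts. Transcripts annotated as protein-coding held 91.3% and 92% of the members' TPM. Rps20 was led by a transcript annotated as a retained intron, which held 92.19% and 92.12% of its TPM, so its gene level rests mostly on a form without an annotated coding sequence.

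The other members led by a form not annotated as protein-coding were Rpl12, Rpl23, Rpl35 and Rps18. They were named after their values were seen, and by expected counts Rpl23 and Rps18 were led by a protein-coding form in both libraries. Rpl12-201, annotated as a target of nonsense-mediated decay, held 61.16% and 58.79% of Rpl12. Processed transcripts held 57.65% and 58.45% of Rpl23, 89.94% and 90.27% of Rpl35, and 48.63% and 49.84% of Rps18. The transcripts of a gene overlap over most of their length, and these shares are estimates. By TPM, but not by expected counts, the leading form of Rpl5 differed between the pools: the coding Rpl5-201 held 47.75% and 39.89%, and the retained-intron form Rpl5-205 held 37.88% and 50.21%.

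The members shared features that the name did not use. Small nucleolar RNAs, which guide modification of ribosomal RNA, are often cut from introns of their host genes. In GENCODE M21 30 of the 77 canonical genes (39%) held 58 small nucleolar RNA genes on the same strand, against 1.51% of 12132 other detected protein-coding genes. Rpl4 held 5 of them and Rpl13a held 4. The principal transcripts of canonical genes had a median of 5 exons against 9, and a median 5′ UTR of 90 nt against 166 nt. The canonical genes lay on 19 chromosomes. Chromosome 7 held 14 of the 77 genes, against 909 of the 12132 other detected genes.

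Start sites were read from RefSeq promoter windows of GRCm38.p6, which were matched for 66 of the 92 members and for 57 canonical genes. The search for an oligopyrimidine tract took a C at the annotated start followed by 4 or more C or T letters, on the sense strand. It was found at the start of 12 of the 57 (21.1%), against 2.31% of 9544 other detected genes and 2.51% of all 32851 promoters. Beginning within 10 bases of the start, which allows for annotation that is a few bases off, it was found in 50.9% against 31.7% and 30.7%. The stretches below hold 30 bases before and 20 bases from the start. Capitals mark a single pyrimidine run per stretch, read only within 10 bases of the start for where it begins. Other runs that fit the same rule stay in lower case, as in Rps27 and Rps27rt. The run of Rps27l extends further upstream than its capitals. The stretches show Rpl38, the Rps27 family, and Rpl5, which has no such run at its RefSeq start. The GENCODE start of Rpl5 lies 26 bases upstream of that start, and a pyrimidine run in the printed stretch lies near it.
Rpl38: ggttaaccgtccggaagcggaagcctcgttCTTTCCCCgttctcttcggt
Rps27: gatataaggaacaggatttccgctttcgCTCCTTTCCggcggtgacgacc
Rps27rt: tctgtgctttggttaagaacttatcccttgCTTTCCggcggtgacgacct
Rps27l: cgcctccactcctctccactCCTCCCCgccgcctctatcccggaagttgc
Rpl5: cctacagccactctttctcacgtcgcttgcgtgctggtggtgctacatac
They lie at chr11:114668550-114668599 on the plus strand, chr3:90213629-90213678 and chr9:114982720-114982769 on the minus strand, and chr9:66946056-66946105 and chr5:107900498-107900547 on the plus strand. Rpl38 has its run at the RefSeq start, which lies 32 bases from the GENCODE start. Rps27 and its retrocopy share CTTTCC and the letters that follow it, while the letters before it differ.

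Other promoter letters were searched in the whole windows, from 250 bases before to 50 bases after the start, on either strand. CCGGAAG, the core letters bound by ETS factors, was in 38.6% of the 57 canonical promoters, 19% of those of other detected genes and 8.86% of all. The letters AAGATGG, bound by Yy1, were in 14%, 7.29% and 6.34%, and GGGCGG, bound by Sp1, in 59.6%, 67.6% and 35.7%. TATAAA on the sense strand, 20 to 40 bases before the start, was in 0 of 57 against 1.17% and 1.99%. Only these exact letters were counted there, and variants such as the TATATAA upstream of the Rps18 start were not. Such matches describe letters in these windows and do not show binding.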

How the data were processed

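For both libraries the authors deposited quantifications by gene and by transcript, each library in tables of its own. Per the file headers the columns are expected counts and posterior mean counts (estimated, unscaled), TPM, FPKM, effective length, bounds of a TPM credibility interval and, for transcripts, the percent of the gene's TPM. The deposited interval bounds were treated as a score; they surround the posterior mean, and for 27 members in each library the TPM itself lay outside them. Per the labels the build was mm10, and the deposited description names annotation M4. The program behind these estimates and its strand setting were not given in the sources used here. Totals were 45205713 and 41070978 expected counts. Intervals and the floor of 3 counts cover counting error only: without molecular identifiers, reads are not independent molecules.

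Gene IDs without version were matched to GENCODE M21 (GRCm38, which is mm10), 42462 of 43346. Counts were rounded and scaled by TMM in edgeR 4.0.16 (R 4.3.3, limma 3.58.1), with DESeq2 1.42.0 size factors as an alternative. Ratios used a prior count of 0.5 and a mean count of 10 or more; a differing gene needed a mean count of 50, a 2-fold ratio and intervals apart. The detection limit was 1 TPM. Copies were found with BLAST 2.17.0 (at least 90% identity over 80% of the coding sequence of the APPRIS principal transcript). Pairs were aligned with Biopython 1.88; Python 3.11.15, numpy 2.4.6, pandas 2.3.3 and scipy 1.17.1 did the rest. There are no p-values, since a single group of 2 pools offers no comparison of conditions. The scaling and the library ratio were tested on simulated libraries, with less spread between them than was fitted to all genes here.

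Members and lists were chosen with earlier results of these data known, and the 3 member classes after the tables were seen. Genes named were the 8 highest and 8 lowest by mean TPM, all pairs, the 5 largest ratios in each direction, the 4 widest intervals, members under 1 TPM, the stalk, 5S, mutant and outside-rule lists, and the 3 most abundant genes of each other list, apart from those said to be chosen after their values were seen. Alternatives covered scaling, count minimums, prior counts, thresholds, units, denominators and each library alone. Some genes that these rules name are not reported here, and the figures that label genes leave them out.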

Additional observations from a re-analysis of the deposited data

How the results depend on the processing

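The members' share of nuclear protein-coding TPM, 5.97%, was 2.17% by expected counts and 4.9% with all features as the denominator; with pseudogene copies added, an alternative chosen after seeing the data, it was 7.26%. Without a replicate it was 5.59% to 6.34%. The median library ratio of -0.07 became -0.17 by deposited TPM, -0.18 by deposited FPKM, -0.14 after a correction for length and 0.26 with ERCC scaling, where 4 members were higher in replicate 1 in place of 60. All-gene medians moved to -0.10, -0.11, -0.03 and 0.32 under the same settings. The count of members differing 2-fold rose from 0 to 1 (Rpl3l) with a mean count of at least 10 or with no minimum. The coefficient of variation fitted to the members alone was 0.0662. With edgeR's trended dispersion, fitted to all genes and read at the members' expression, it was 0.182, which is not the members' own spread. Rpl37 was below Rpl37rt by TPM (-1.68 on the log2 scale) and above it by expected counts (0.27), which are not divided by length.

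Of all values under alternatives, 97 kept their direction and call, 10 moved, 2 reversed and 5 passed the rule only under the alternative. No paired analysis was possible because there is 1 group. Leaving out a library leaves no library ratio. Depth limits Rpl3l, Rpl39l, Rpl36a-ps1 and the genes at 0, whose ratios rest on few counts. The estimates for genes with identical copies depend on an assignment of reads that could not be repeated here. The strand used in counting is unknown, so reads of overlapping genes and of genes antisense to a member are uncertain.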
